A study of Mus musculus with 6 samples.

Results

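FXR target and bile acid handling genes were examined in islets of FXR knockout and wild-type mice. They are 10 genes taken from the gene count table by their symbols: *Nr0b2*, *Slc51a*, *Slc51b*, *Abcb11*, *Abcb4*, *Fgf15*, *Gpbar1*, *Slc10a2*, *Fgfr4* and *Klb*. Of these 10, 8 have a row among the 19342 genes of the table, and 5 passed the filter on low counts (*Nr0b2*, *Abcb11*, *Abcb4*, *Fgfr4* and *Klb*). *Slc10a2* and *Fgf15* have no row in the gene table or in the exon table used here, and were not analysed. RNA-seq was performed on islets, the clusters of endocrine cells of the pancreas, from wild-type mice (WT, FXR+/+) and from mice in which *Nr1h4*, the gene of FXR, was knocked out (KO, FXR-/-), on a C57Bl/6 background and at 3 months of age. Each genotype had 3 libraries, named here female 1, male 1 and male 2. No treatment besides the isolation of the islets is given in the labels, and how many mice went into each library is not given in the sources used here, so the p-values measure only the spread between these libraries, which may be technical. Whole islets were sequenced, so fewer cells of a type and less RNA per cell cannot be told apart.

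FXR is a nuclear receptor that bile acids activate, and it binds DNA mostly together with RXR. In liver and ileum it induces *Nr0b2*, whose product SHP represses bile acid synthesis, and genes for bile acid exporters, and in the ileum it induces *Fgf15*, a hormone that acts on the liver through FGFR4 and its co-receptor β-Klotho. TGR5, encoded by *Gpbar1*, is a second bile acid receptor that sits at the cell surface and is known in islets for its link to insulin secretion.

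The libraries held 20629306 to 30139235 counts on genes, of which 32.3% to 36.6% were also counted on listed exons. *Nr1h4* itself was counted 333, 274 and 386 times in WT and 140, 145 and 138 times in KO islets (female 1, male 1 and male 2, the order used throughout). Every KO library was below every WT library, with a log2 fold change of −1.07 (SE 0.160) that had an adjusted p of 0.216 in edgeR's quasi-likelihood test and of 0.0440 with the replicate number as a block. Its exon at the 3′ end, at chr10:89454234-89454948, had 210 counts over the WT libraries and 0 over the KO libraries, at least 62.7-fold lower with a floor of 3 counts over the KO group (edgeR adjusted p = 0.00656). Of all reads of *Nr1h4* 26.7% lay on listed exons, and on exon counts alone the log2 fold change was −1.78, with an edgeR adjusted p of 0.0975. The next exon, at chr10:89456531-89456644, had 3 counts in WT and 32 in KO islets, and the exons other than the one at the 3′ end had 91 and 77 counts together. Endocrine islet markers took 236351 to 314488 CPM, the read counts scaled to library size with TMM factors, in sum, with 0 of 12 markers at 0 in any library. Acinar markers, of the exocrine pancreas, took 42984 to 129825 CPM in WT and 60173 to 147411 CPM in KO libraries, highest in male 1 of both genotypes. WT male 2 stood apart by transcripts of intestine and liver, with *Alpi* at 161, *Fabp2* at 67, *Sis* at 30 and *Cyp3a11* at 37 counts where the other 5 libraries had 0.

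Of the 5 members tested, 0 were called between the genotypes, in a test that did not call *Nr1h4* either, and a member that was not called is not shown to be unchanged. Over all 14619 genes, edgeR's quasi-likelihood test with Benjamini-Hochberg adjustment called 0 at a threshold of 0.05 (0%), and 0 of the 5 members had an unadjusted p under 0.05, where 10.3% of all genes tested did. The libraries of the genotypes overlapped for each of the 5 members, while they did not overlap for 15.4% of all genes tested. With the replicate number as a block, 0 of the 5 members were called beside 0.157% of all genes, and DESeq2 called 0 of the 5 beside 1.21% of all genes. The log2 fold changes of the 5 members ran from −0.02 to 0.48 with a median of 0.11, beside a median of 0.0084 over all genes tested, and 4 of the 5 lay above 0.

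**Figure D1:**
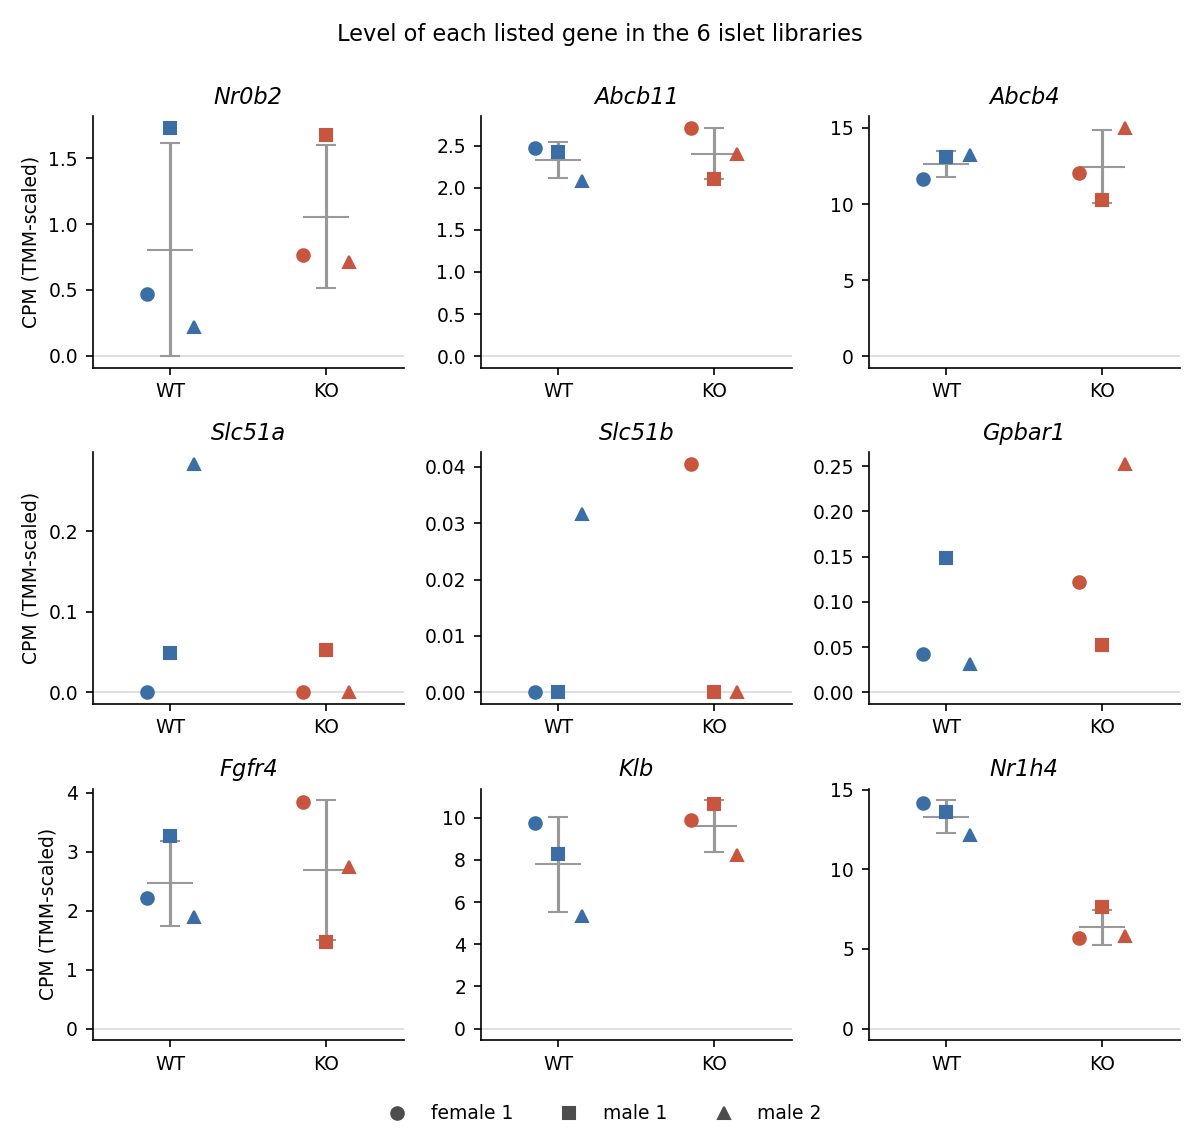
Level of the 8 members with a row in the table and of *Nr1h4* in each library, in TMM-scaled CPM on the vertical axis, with WT in blue, KO in red and 1 symbol per library label. Horizontal bars and whiskers give the mean and SD of 3 libraries, and are left out for the 3 members with at most 9 counts in a library. The genotypes overlap in every panel but that of *Nr1h4*.

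*Nr0b2* (NCBI gene 23957, chr4:133553376-133556686, plus strand, RefSeq annotation of GRCm38.p6) encodes SHP, an orphan receptor that represses other nuclear receptors and is the target most used as a readout of FXR in liver. It was counted 11, 35 and 7 times in WT and 19, 32 and 17 times in KO islets. Male 1 was the highest library in both genotypes, and the 3 KO libraries lay within the range of the WT libraries. The level was 0.808 ± 0.811 CPM (SD, n = 3) in WT and 1.06 ± 0.543 CPM (SD, n = 3) in KO islets, a log2 fold change of 0.48 (SE 0.704, edgeR adjusted p = 0.801). The 95% interval of the fold runs from 0.447 to 4.37, so the depth and the spread left a wide range of folds in either direction. Between libraries of the same number, the KO level was 1.64, 0.970 and 3.24 times that in WT. A single library set the direction: the log2 fold change was −0.19 without WT male 2, 1.60 without WT male 1 (edgeR adjusted p = 0.324, unadjusted p = 0.0398) and 0.0851 without KO male 1.

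*Nr0b2* and the acinar markers were high in the same libraries. Their summed level was 47124, 129825 and 42984 CPM in the WT and 60173, 147411 and 86327 CPM in the KO libraries, so both measures were highest in male 1 of each genotype and lowest in WT male 2. With a term for the acinar markers in the fit, the log2 fold change of *Nr0b2* was −0.19 (edgeR adjusted p = 0.913). The part of acinar RNA in the level of *Nr0b2* was otherwise not tested. Reads were found on both exons of *Nr0b2*, which held 6, 23 and 7 counts in WT and 17, 24 and 16 counts in KO islets, or 76.9% of all its reads. The exon at the 5′ end, at chr4:133553376-133553965, was tested on its own and had a log2 fold change of 0.99 (SE 0.555, edgeR adjusted p = 0.658).

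**Figure D2:**
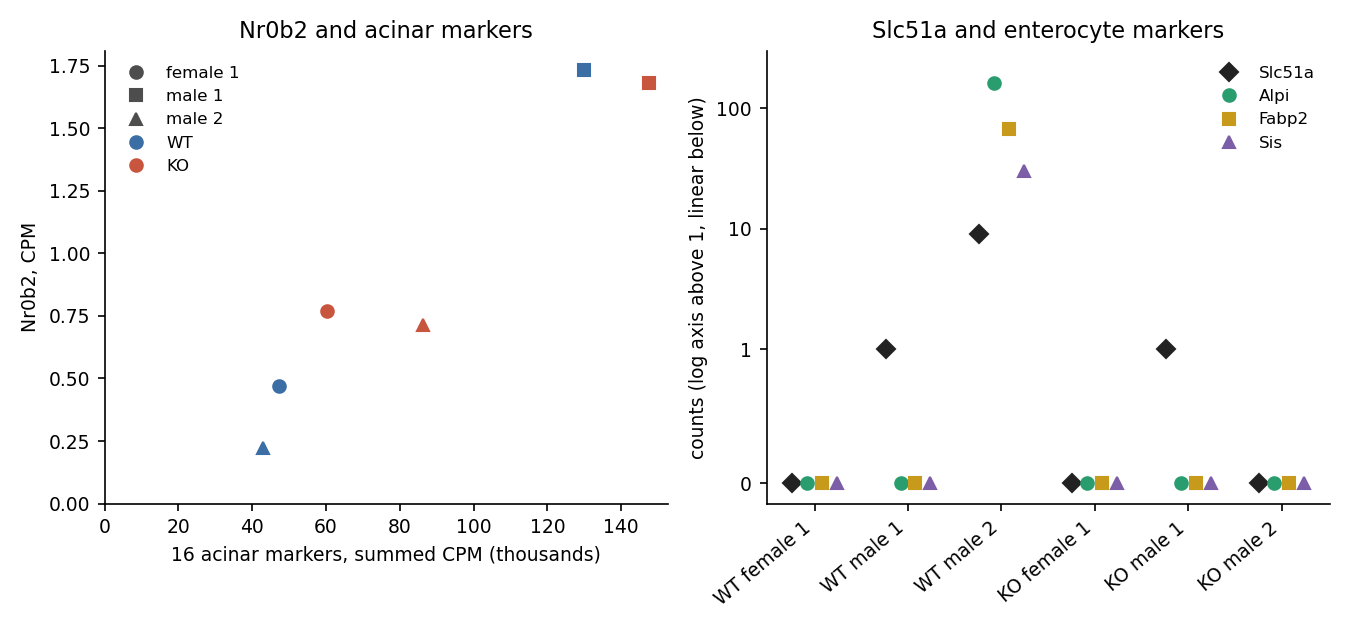
Left, *Nr0b2* in CPM against the summed CPM of 16 acinar markers, 1 point per library. Right, counts of *Slc51a* and of 3 enterocyte markers in each library, on an axis that is linear below 1 and logarithmic above. Male 1 of both genotypes lies at the upper right of the left panel, and in the right panel WT male 2 alone holds enterocyte transcripts, together with 9 of the 11 *Slc51a* counts.

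The sequences of the promoters are shown for the export genes and *Nr0b2*, since FXR is known to act on such genes through an inverted repeat with 1 spacer base (IR-1). The windows are those of RefSeq (GRCm38.p6), from 250 bases before to 50 bases after the start of the gene, read 5′ to 3′ on the strand of the gene. Capitals mark matches to the IR-1, AGGTCANTGACCT with at most 2 mismatches in its 12 fixed bases, and to its half-site AGGTCA on either strand. For *Abcb4*, whose window is not printed, RefSeq sets it (chr5:8893471-8893770) on a start that lies inside the gene as given further on, not on its first base. The windows shown were chr4:133553126-133553425 for *Nr0b2*, chr2:69342567-69342866 for *Abcb11*, chr16:32487830-32488129 for *Slc51a* and chr9:65422724-65423023 for *Slc51b*.
Nr0b2: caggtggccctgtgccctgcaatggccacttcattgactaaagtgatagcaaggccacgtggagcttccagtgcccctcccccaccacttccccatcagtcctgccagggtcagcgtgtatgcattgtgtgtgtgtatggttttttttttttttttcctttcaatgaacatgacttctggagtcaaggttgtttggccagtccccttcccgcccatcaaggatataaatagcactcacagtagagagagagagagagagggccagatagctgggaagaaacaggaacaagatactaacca
Abcb11: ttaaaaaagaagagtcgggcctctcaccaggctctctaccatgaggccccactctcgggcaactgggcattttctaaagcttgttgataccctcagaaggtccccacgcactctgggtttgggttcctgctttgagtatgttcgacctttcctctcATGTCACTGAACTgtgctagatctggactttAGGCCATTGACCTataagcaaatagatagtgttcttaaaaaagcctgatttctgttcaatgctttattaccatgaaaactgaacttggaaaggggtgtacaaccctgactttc
Slc51a: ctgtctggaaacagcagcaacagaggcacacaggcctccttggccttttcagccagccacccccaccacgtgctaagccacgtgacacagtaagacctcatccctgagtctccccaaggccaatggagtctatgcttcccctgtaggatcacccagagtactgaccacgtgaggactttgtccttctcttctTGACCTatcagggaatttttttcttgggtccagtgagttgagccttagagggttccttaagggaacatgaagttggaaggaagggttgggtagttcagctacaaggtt
Slc51b: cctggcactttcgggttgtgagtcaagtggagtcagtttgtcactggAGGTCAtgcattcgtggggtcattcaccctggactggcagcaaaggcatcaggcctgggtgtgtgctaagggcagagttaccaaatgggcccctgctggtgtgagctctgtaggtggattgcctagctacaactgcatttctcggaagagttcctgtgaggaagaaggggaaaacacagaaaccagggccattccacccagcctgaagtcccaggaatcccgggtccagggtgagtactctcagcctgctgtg

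Of the 9 members with a RefSeq promoter window, 1 held an IR-1 and 3 held a half-site, beside 1.14% and 16.3% of all 32851 windows. In *Abcb11* the nearer IR-1, AGGCCATTGACCT at chr2:69342667-69342679, begins 63 bases before the start and carries 1 substitution, T4C, counted from the 5′ end of the motif. The other, ATGTCACTGAACT at chr2:69342698-69342710, begins 94 bases before the start and carries G2T and C11A. With at most 1 mismatch, *Abcb11* remained the 1 member with a match, beside 0.0822% of all windows. The half-site of *Abcb11* is the right arm of its nearer IR-1, while those of *Slc51a* and *Slc51b* stand alone. Neither motif was found in the windows of *Nr0b2*, *Abcb4*, *Gpbar1*, *Fgfr4*, *Klb* and *Slc10a2*, which says only that these letters are not in these bases.

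*Abcb11* (NCBI gene 27413, chr2:69238282-69342616, minus strand) encodes BSEP, the pump that moves bile salts from hepatocytes into bile. It was counted 58, 49 and 66 times in WT and 67, 40 and 57 times in KO islets. The libraries of the genotypes overlapped, and all 6 lay between 2.08 and 2.71 CPM. The level was 2.33 ± 0.213 CPM (SD, n = 3) in WT and 2.40 ± 0.305 CPM (SD, n = 3) in KO islets, a log2 fold change of 0.05 (SE 0.205, edgeR adjusted p = 0.935) with a 95% interval of the fold from 0.743 to 1.45. Of its reads 74.2% fell on 14 listed exons. These lie between chr2:69238282 and chr2:69287724, and no exon is listed from there to the start of the gene at chr2:69342616. Whether the reads come from transcripts that begin at that start was not tested. The exon at the 3′ end, at chr2:69238282-69239284, had 21, 14 and 17 counts in WT and 15, 12 and 19 counts in KO islets (log2 fold change −0.03, SE 0.352, edgeR adjusted p = 0.986). Among the exons too low to be tested, that at chr2:69245745-69245951 had 0, 1 and 0 counts in WT and 3, 4 and 1 in KO islets, and that at chr2:69248714-69248911 had 0, 2 and 1 counts in WT and 8, 6 and 2 in KO islets. That at chr2:69286665-69286868 went the other way, with 5, 0 and 3 counts in WT and 1, 0 and 0 in KO islets. These exons were named after their counts were seen. An antisense gene, which spans the exon at chr2:69248714-69248911, and a pseudogene are annotated within *Abcb11*. Whether strand was used in counting is not given in the sources used here.

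*Abcb4* (NCBI gene 18670, chr5:8893614-8959226, plus strand) encodes MDR2, which moves phosphatidylcholine into bile beside the bile salts. It was the most counted member, with 274, 264 and 419 reads in WT and 298, 195 and 357 reads in KO islets. The KO libraries held both the lowest and the highest level, at 10.3 CPM in male 1 and above every WT library in male 2. The mean was 12.7 ± 0.855 CPM (SD, n = 3) in WT and 12.4 ± 2.40 CPM (SD, n = 3) in KO islets, a log2 fold change of −0.02 (SE 0.156, edgeR adjusted p = 0.965) with a 95% interval of the fold from 0.765 to 1.27. Few of these reads lay on its listed exons: 82 of 1807, or 4.54%, over 21 exons, a share lower than that of most genes tested (percentile 2.65, median over all genes 50.6%). The exons held 9, 15 and 22 counts in WT and 16, 4 and 16 counts in KO islets. Where the remaining reads lie within the gene was not tested, and a processed pseudogene, *Gm17936*, is annotated inside it at chr5:8912971-8913958 on the same strand.

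*Slc51a* (NCBI gene 106407, chr16:32475578-32487879) and *Slc51b* (NCBI gene 330962, chr9:65412753-65422773), both on the minus strand, encode the 2 subunits of the transporter OSTα-OSTβ, through which bile acids leave enterocytes. Both were at or near 0 and did not pass the filter. *Slc51a* was counted 0, 1 and 9 times in WT and 0, 1 and 0 times in KO islets, and *Slc51b* 0, 0 and 1 times in WT and 1, 0 and 0 times in KO islets. A floor of 3 counts for a count of 0 is 0.121 to 0.158 CPM in the libraries that had one. For *Slc51a* the sums of 10 and 1 counts gave a ratio of KO over WT of 0.112 (exact 95% interval from 0.00257 to 0.785), but 9 of the 10 came from WT male 2, the library with enterocyte transcripts. Without that library 1 count stood against 1, a ratio of 0.647 (exact 95% interval from 0.00824 to 50.8). These intervals cover counting error only. In a two-sided exact permutation test on the 6 libraries *Slc51a* had p = 0.7 and *Slc51b* p = 1, where 0.1 is the smallest p that 3 libraries against 3 allow. At this depth neither subunit was detectable in islets beyond single reads, apart from *Slc51a* in WT male 2.

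*Slc10a2*, which encodes the ileal bile acid uptake transporter ASBT, was not analysed for want of a row. *Gpbar1* (NCBI gene 227289, chr1:74278600-74279589, plus strand) was counted 1, 3 and 1 times in WT and 3, 1 and 6 times in KO islets, all on its single listed exon. The highest library was KO male 2 and the genotypes overlapped. The ratio of KO over WT was 2.23 (exact 95% interval from 0.695 to 8.33, counting error only), and the two-sided exact permutation test gave p = 0.4. *Gpbar1* did not pass the filter on low counts, so it has no value in the fit.

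*Fgfr4* (NCBI gene 14186, chr13:55152818-55168759, plus strand) encodes the receptor through which FGF15 lowers bile acid synthesis in liver. It was counted 52, 66 and 60 times in WT and 95, 28 and 65 times in KO islets. The KO libraries enclosed the WT libraries, with female 1 highest and male 1 lowest of all 6. The level was 2.46 ± 0.720 CPM (SD, n = 3) in WT and 2.68 ± 1.19 CPM (SD, n = 3) in KO islets, a log2 fold change of 0.11 (SE 0.360, edgeR adjusted p = 0.918) with a 95% interval of the fold from 0.603 to 1.94. The direction turned in 5 alternatives, to −0.26 in males alone and to −0.24 on exon counts among others. These 5 are not separate checks, since a fit without either female library rests on the males for the genotype term. Of its reads 18.9% lay on 12 listed exons, most of them on the last, at chr13:55168026-55168759, with 11, 11 and 5 counts in WT and 19, 1 and 4 counts in KO islets (log2 fold change −0.26, SE 0.617, edgeR adjusted p = 0.921).

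*Klb* (NCBI gene 83379, chr5:65348411-65386957, plus strand) encodes β-Klotho, the co-receptor that FGF15 and FGF21 need. It was counted 229, 167 and 169 times in WT and 244, 203 and 196 times in KO islets. The KO level was 1.01, 1.29 and 1.55 times that in WT between libraries of the same number. Each KO library was thus above the WT library of its number, which was also so for 20.4% of all genes tested. The groups still overlapped, since WT female 1 was above KO male 2. The level was 7.79 ± 2.25 CPM (SD, n = 3) in WT and 9.60 ± 1.24 CPM (SD, n = 3) in KO islets, a log2 fold change of 0.32 (SE 0.211, edgeR adjusted p = 0.572) with a 95% interval of the fold from 0.889 to 1.76. The log2 fold change of *Klb* lay between 0.11 and 0.48 in the 18 alternatives, with an edgeR or DESeq2 adjusted p of 0.322 or higher. Its 4 tested exons had log2 fold changes of 0.28, 0.26, 0.38 and 0.57 from the 5′ to the 3′ end, with SEs from 0.263 to 0.399 and edgeR adjusted p from 0.637 to 0.866.

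**Figure D3:**
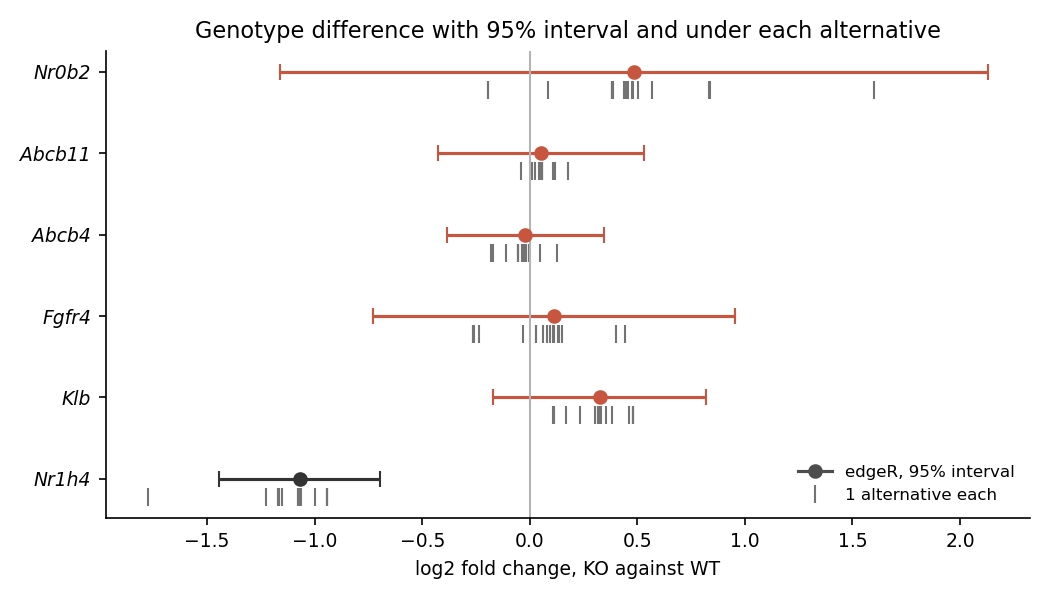
Log2 fold change of KO against WT for the 5 members tested and *Nr1h4*, with points and whiskers for the edgeR estimate and its 95% interval and a tick for each alternative. The intervals of all 5 members include 0, and that of *Nr1h4* runs from −1.44 to −0.69.

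Of the exons of members, 7 passed the filter on low counts and 0 were called, beside 0.0185% of all exons tested. A term for the difference of the genotype effect between the sexes was called for 0 of the 5 members and for 0% of all genes tested, of which 217 had an unadjusted p under 0.05 in edgeR. Females had 1 library per genotype, so the fit assumes that they vary as the males do, and it cannot show whether the sexes differ. For *Fgfr4* the value was 1.05 on the log2 scale for females minus males, with a 95% interval from −0.69 to 2.80.

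Levels between genes were compared per kilobase of exonic length (GENCODE vM21), averaged over the 6 libraries. From all reads of a gene, the order was *Abcb4* at 3.08, *Klb* at 2.46, *Nr0b2* at 0.823, *Fgfr4* at 0.774, *Abcb11* at 0.460, *Gpbar1* at 0.101, *Slc51a* at 0.0246 and *Slc51b* at 0.0169 CPM per kilobase. The ranges over libraries overlapped between each neighbouring pair but *Abcb11* and *Gpbar1*. *Abcb4* stood at percentile 51.2 and *Slc51b* at percentile 7.81 of the 18561 genes with a length. A measure from reads on listed exons over the length of those exons was added after the data were seen. By it *Klb* was highest at 1.79 CPM per kilobase, followed by *Abcb11* at 0.562, *Nr0b2* at 0.551, *Fgfr4*, and *Abcb4* at 0.167. Every listed exon of the members held reads, so exons without reads are left out of the length, which raises the level. The listed length was 3151 bases for *Abcb11*, against an exonic length of 5146, and 1282 against 1132 for *Nr0b2*. The order of these 2 genes thus cannot be read from this measure. The mean of *Abcb4* thus went from the highest of the 5 members tested to the lowest, where its range over libraries (0.0630 to 0.223) lay within that of *Fgfr4* (0.0439 to 0.439), while *Klb*, at percentile 47.9 of all genes by the first measure, was among the 2 highest members by both.

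**Figure D4:**
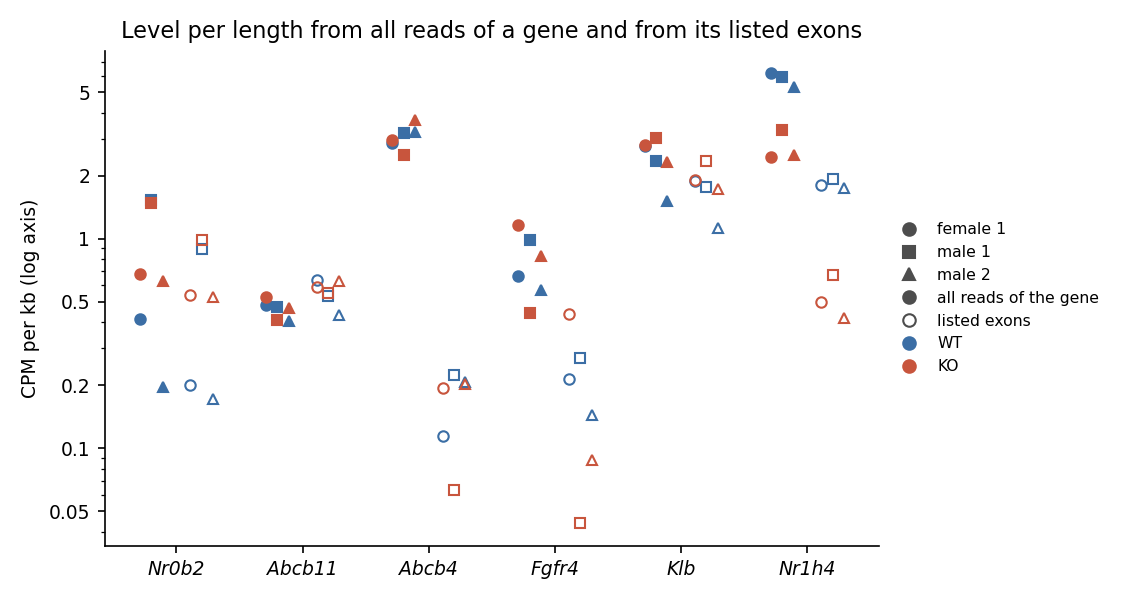
Level per kilobase in each library on a log axis, from all reads of the gene over its exonic length (filled symbols) and from reads on listed exons over their length (open symbols). The *Abcb4* symbols fall from a mean of 3.08 to 0.167 CPM per kilobase between the measures. Those of *Abcb11* are at 0.460 and 0.562, over lengths of 5146 and 3151 bases, since exons without reads are not listed.

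Other genes of the pathway were taken from 5 lists of 61 genes in all, of which 60 have a row and 40 were tested. None was called by edgeR's quasi-likelihood test, and 8 had an unadjusted p under 0.05 in it (4 higher and 4 lower in KO islets), beside 10.3% of all genes tested. The 4 lower include *Nr1h4*, the gene that was knocked out, which is in these lists and was not taken out of the counts. The median log2 fold change was 0.12, beside 0.0084 over all genes. Of FXR and its partners, *Rxra* and *Rxrb*, which encode the RXRs that FXR pairs with, had log2 fold changes of 0.02 and 0.21 (edgeR adjusted p = 0.963 and 0.547), that of *Rxrb* being 0.0808 without KO male 1, 0.11 without WT male 2 and 0.0907 with the acinar term. *Nr1h4* was thus the one of the 3 tested genes of that list with an unadjusted p under 0.05.

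Of the bile acid synthesis and conjugation genes, 10 of 17 were tested, 0 had an unadjusted p under 0.05 and the median log2 fold change was 0.05. The liver enzymes *Cyp7a1* and *Cyp8b1*, named outside the rule as the enzymes that SHP is known to repress, were counted 2 and 3 times in WT male 2, *Cyp8b1* once more in KO male 2, and 0 times in the other libraries. *Ch25h*, which makes 25-hydroxycholesterol, was counted 14, 7 and 11 times in WT and 22, 12 and 20 times in KO islets. Its KO libraries all lay above the WT libraries in CPM, with a log2 fold change of 0.89 (SE 0.386, edgeR adjusted p = 0.481). *Cyp27a1*, the sterol 27-hydroxylase, had a log2 fold change of 0.36 (SE 0.366), which was −0.11 in males alone. *Scp2* and *Hsd17b4*, whose products shorten the side chain in peroxisomes, were the most counted of the list, with log2 fold changes of 0.07 (SE 0.102) and 0.15 (SE 0.129), the latter 0.00786 without WT male 1 and 0.26 without WT male 2.

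Of the other bile acid and sterol transporters, 7 of 14 were tested, and 5 of the 7 had an unadjusted p under 0.05, beside 10.3% of all genes, although none passed the adjusted threshold. That count depended on the setting, as did the count over all genes, given here in brackets. It was 5 with the replicate block (2347 of 14619), 2 with the acinar term (1205) and 2 with library size alone (1506). It was 1 with DESeq2 (1331), 0 in males alone (1218 of 14717), and 0 to 3 when 1 library was left out. In males alone the log2 fold changes of *Abcc2*, *Abcb1a*, *Atp8b1* and *Abcc4* were −0.66, 0.55, −0.41 and 0.24. With DESeq2 they were −0.75, 0.57, −0.33 and 0.21. *Abcc2*, which encodes MRP2, an exporter of conjugates, had 1.66, 2.43 and 2.05 CPM in WT and 0.891, 1.10 and 1.68 CPM in KO islets (log2 fold change −0.73, SE 0.269, edgeR adjusted p = 0.457). *Abcb1a*, which encodes a P-glycoprotein, had 2.68, 3.07 and 2.11 CPM in WT and 4.09, 4.36 and 3.20 CPM in KO islets (log2 fold change 0.57, SE 0.228, edgeR adjusted p = 0.469). With the acinar term its log2 fold change was 0.38. Of the 7 tested, 4 did not overlap between the genotypes, beside 15.4% of all genes: *Abcb1a*, the drug exporter *Abcc4* (log2 fold change 0.21, SE 0.0885), and *Abcg2* and *Abcc3*, both named after their values were seen. *Abcc2* and the phospholipid flippase *Atp8b1* (log2 fold change −0.33, SE 0.133, −0.16 without WT male 2 and −0.18 with the acinar term) overlapped. *Abcg2*, the fifth with an unadjusted p under 0.05, had a log2 fold change of 0.45 (SE 0.180, edgeR adjusted p = 0.473), and *Abcc3* one of 0.33 (SE 0.196, edgeR adjusted p = 0.554). Markers of other cell types were read beside these transporters, and 0 of them were called. Of 7 endothelial and stromal markers, 3 had an unadjusted p under 0.05 in edgeR, all with higher values in KO islets, beside 10.3% of all genes. All 7 had log2 fold changes above 0, beside 51.5% of all genes. Their summed level was 238 to 372 CPM in WT and 333 to 489 CPM in KO libraries, with 0 of 7 at 0 in any library. Of 8 macrophage markers, 4 had an unadjusted p under 0.05 in edgeR, all with higher values in KO islets, beside 10.3% of all genes. *C1qb*, *C1qc* and *Csf1r* did not overlap between the genotypes, beside 15.4% of all genes. The summed level of the macrophage markers was 111 to 150 CPM in WT and 148 to 175 CPM in KO libraries. Of these 8, 6 had log2 fold changes above 0, and *Lyz2* and *Mrc1* were at −0.11 and −0.0681. Of 8 tested ductal markers, 6 had log2 fold changes above 0. An unadjusted p under 0.05 in edgeR was found for 3 of them, all with higher values in KO islets, beside 10.3% of all genes. Among these were *Spp1* (log2 fold change 1.08, SE 0.233, edgeR adjusted p = 0.287) and *Sox9* (log2 fold change 0.93, SE 0.351, edgeR adjusted p = 0.457). *Krt7* (log2 fold change −0.21, SE 0.0971) was lower in every KO library than in any WT library, and *Car2* was at −0.26. The summed level of the ductal markers was 355 to 596 CPM in WT and 408 to 699 CPM in KO libraries. The summed ranges of the genotypes overlapped for these 3 lists. With the replicate block, all of the endothelial and stromal markers had an unadjusted p under 0.05 in edgeR, all higher in KO islets. *Cd68* of the macrophage markers and *Muc1* and *Tff2* of the ductal markers then did so too, also higher, beside 2347 of all 14619 genes. None of these markers was called with the block. Not every marker list ran higher: in another, the 2 tested genes had log2 fold changes below 0, with a median of −0.86, and 1 of them had an unadjusted p under 0.05 in edgeR. The part of these cell types in the levels of the transporters, and of *Pltp* described further on, was not tested.

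Of the other FGF receptors and endocrine FGFs, 8 of 9 were tested, 0 had an unadjusted p under 0.05 and the median log2 fold change was 0.10. With the replicate block 2 did (*Fgf21* and *Fgfr3*, both higher in KO islets), beside 2347 of all 14619 genes. With library size alone 2 did (*Frs2* and *Kl*, both lower), beside 1506 genes. None was called in either setting. *Fgf21*, a hormone that signals through β-Klotho, was counted 12, 83 and 17 times in WT and 39, 144 and 31 times in KO islets, highest in male 1 of both genotypes as the acinar markers were (log2 fold change 1.13, SE 0.830, edgeR adjusted p = 0.605). Each KO library exceeded the WT library of its number, and the replicate block gave an edgeR adjusted p of 0.0988. The log2 fold change was 0.13 without KO male 1, 2.49 without WT male 1 and 0.21 with the acinar term. *Fgfr1*, named after its values were seen as the usual partner of β-Klotho outside the liver, stood at 4.88 ± 0.726 CPM per kilobase (SD, n = 3) in WT islets, against 0.740 ± 0.217 for *Fgfr4* on the same scale. *Fgfr2* had a log2 fold change of 0.69 (SE 0.349), which was 0.22 in males alone. It was also 0.22 without either female library, where the genotype term rests on the same male libraries. The adaptor *Frs2* had a log2 fold change of −0.15 (SE 0.0746) and the FGF23 co-receptor *Kl* one of −0.15 (SE 0.0977), which was −0.0297 in males alone.

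Of the other genes described as FXR-regulated, 12 of 17 were tested, and the median log2 fold change was 0.21. Of the 12, 2 had an unadjusted p under 0.05 (1 higher, 1 lower), beside 10.3% of all genes. With the replicate block 6 of the 12 did, beside 2347 of all 14619 genes. These were *Pltp*, *Irs2*, *Apoe*, *Nos3* and *Scarb1*, higher, and *Vldlr*, lower. Their edgeR adjusted p with the block was 0.0971 for *Irs2* and 0.0997 or more for the others. *Pltp*, which encodes the phospholipid transfer protein of plasma, was the one that was higher without the block. It had 5.20, 6.98 and 3.79 CPM in WT and 8.62, 9.62 and 8.28 CPM in KO islets (log2 fold change 0.74, SE 0.230, edgeR adjusted p = 0.430). The one that was lower was *Vldlr*, a lipoprotein receptor named after its values were seen (log2 fold change −0.33, SE 0.0911, edgeR adjusted p = 0.383). The genotypes did not overlap for 3 of the 12 tested, beside 15.4% of all genes: *Pltp*, higher in KO islets, and *Vldlr* and *Ppara*, lower, the last also named after its values were seen (log2 fold change −0.29, SE 0.243, edgeR adjusted p = 0.648). *Irs2*, an adaptor of the insulin receptor, was counted 1227, 2345 and 1202 times in WT and 1497, 4228 and 2067 times in KO islets, again highest in male 1 (log2 fold change 0.74, SE 0.468, edgeR adjusted p = 0.562). With the replicate block its edgeR adjusted p was 0.0971, while the log2 fold change was 0.18 with the acinar term, 0.33 without WT male 2, 0.19 without KO male 1 and 1.21 without WT male 1. *Apoe*, a lipoprotein component, had a log2 fold change of 0.38 (SE 0.238), which was 0.12 without WT male 2, 0.18 without KO male 1, 0.58 without either female library or WT male 1, and 0.12 with the acinar term.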

How the data were processed

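RNA was extracted from islets, and poly(A) RNA was fragmented and reverse transcribed with random hexamers. The submitters' processing notes name HISAT. The version, genome build, counting rule and use of strand are not given in the sources used here. The authors deposited whole-number counts per gene and counts per exon. Exon positions are those of GRCm38, and 86.7% of exon boundaries are found in GENCODE vM21. Tables of the authors' own comparison, with log2 fold changes and p-values, were not used.

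Members and lists were chosen with earlier results of these data known. Gene counts were tested with edgeR 4.0.16 in R 4.3.3 (filterByExpr by genotype with minimum count 10 and total 15, TMM, glmQLFit and glmQLFTest, terms for sex and genotype), and p-values were adjusted by Benjamini-Hochberg over all 14619 genes. Exons were fitted likewise. Permutation tests used log2 of CPM plus 0.01. DESeq2 1.42.0 and the settings in the closing section were alternatives. Same-numbered libraries deviated together (correlations 0.359, 0.351 and 0.307, others at most 0.00887), by the numbers in the labels. What the numbers mark is not given in the sources used here, and same-numbered libraries also share the sex. Whether they were paired in the experiment is thus not known. Every member was named, and of each list the genes called, or else the 2 with the largest fold change and the 2 with the highest mean CPM. The tests were checked on simulated data. Cell type marker lists are given as far as they bear on a result, and the genes of one are not reported here.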

Additional observations from a re-analysis of the deposited data

How the results depend on the processing

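Over the 18 alternatives (17 for *Nr0b2*, which had under 10 counts in 1 library), 0 members were called, and 1 had an unadjusted p under 0.05 in 1 of them (*Nr0b2* without WT male 1). Over all genes, 0 calls became 23 with the replicate block, 7 with the acinar term, 170 with DESeq2 and 4 with exon counts summed per gene, and were 0 in each fit that left out 1 library. The block, which groups libraries by the numbers in their labels, called *Nr1h4* (log2 fold change −1.08) and no member or exon of a member. *Nr1h4* was called by DESeq2 too, with an adjusted p from 8.59e-05 to 0.650 over its alternatives. Males alone gave −0.26 for *Fgfr4* and −0.11 for *Cyp27a1*. The acinar term gave −0.19 for *Nr0b2*, 0.0495 for *Abcb4* and −0.0874 for *Rxra*. Library size alone, which shifted the median of all genes to −0.0865, gave −0.0392 for *Abcb11*, −0.0785 for *Rxra* and −0.0258 for *Scp2*, which moved with that median and stayed above it. Exon counts gave −0.24 for *Fgfr4* and −0.00188 for *Scp2*. Leaving out 1 library gave ranges of −0.19 to 1.60 for *Nr0b2*, −0.18 to 0.13 for *Abcb4*, −0.26 to 0.44 for *Fgfr4*, −0.10 to 0.67 for *Cyp27a1*, −0.0333 to 0.16 for *Scp2* and −0.15 to 0.13 for *Rxra*. In a fit without 1 female library the sex term takes up the other female library, so the genotype term rests on the males. Such fits largely repeat males alone and are not separate checks. The cause of the turns other than those under library size alone was not tested. Reads on listed exons moved the level per kilobase of *Abcb4* to 0.167. With at most 9 counts in a library, *Slc51a*, *Slc51b* and *Gpbar1* are limited by depth.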
